A study of Mus musculus with 6 samples.

Results

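The clustered protocadherin genes of mouse chromosome 18 were examined in reduced representation bisulfite data from bone marrow cultures. The interval was fixed by position, from 37.08 Mb to 38.005 Mb on the mm9 build, and holds 765 of the 652716 cytosines in the deposited table. Of these, 193 lie in the stretch of the alpha cluster (to 37.35 Mb), 102 in that of the beta cluster (37.4 to 37.68 Mb) and 423 in that of the gamma cluster (from 37.8 Mb). Another 16 lie between alpha and beta, and 31 between beta and gamma. Levels were computed for each cluster and for runs, meaning listed cytosines whose neighbours lie at most 100 bp apart. The interval holds 209 runs, of which 96 have at least 3 cytosines, 39 have 2 and 74 have 1.

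Clustered protocadherins are cell adhesion proteins, best known from neurons, where each cell uses its own combination of them to tell its own processes from those of other cells. In the alpha and gamma clusters many variable first exons, each with a promoter of its own, are spliced to shared constant exons at the end of the cluster, while each beta gene is a single exon. Promoters are chosen largely at random in each neuron, with CTCF binding, and methylation of a promoter goes with its silence. The C-type members at the end of the alpha and gamma clusters are instead expressed more uniformly. RefSeq, on the GRCm38 build, lists 14 alpha, 22 beta and 22 gamma genes, the last including 1 pseudogene. The order runs from Pcdha1 to Pcdha12, Pcdhac1 and Pcdhac2, then from Pcdhb1 to Pcdhb22, then Slc25a2 and Taf7, then from Pcdhga1 to Pcdhgc3, Pcdhgc4 and Pcdhgc5, followed by Diaph1. Runs carry mm9 coordinates, and since no mm9 annotation was used, no run was assigned to a gene, exon or promoter.

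All 6 samples were C57BL/6J bone marrow labelled male. At day 0 the cells had not been cultured (replicates 2 and 3), and on day 4 (replicates 1 and 2) and day 7 (replicates 1 and 4) they had grown in medium with supernatant of a cell line that secretes Flt3L, the cytokine that drives marrow cells toward dendritic cells. The labels call day 4 cells common myeloid progenitors and day 7 cells bone marrow derived dendritic cells, but all live cells of the cultures were taken and marrow holds many cell types, so each sample is a mixture. A level between 0% and 100% can therefore come from different cells, from the 2 copies of the chromosome, or from both, and these cannot be told apart here. The labels do not say whether replicates were separate animals or cultures, and p-values therefore cover only how these deposited samples vary.

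Reads at the cytosines of the interval numbered 11869 and 9315 on day 0, 12080 and 7620 on day 4, and 10162 and 3488 in day 7 replicates 1 and 4. The median per cytosine was 14 and 11, 14 and 9, and 13 and 4. Day 7 replicate 4 was thus the shallowest library, and 5 cytosines had no read in it. Both day 7 libraries also stand apart from their label: reads per X cytosine over reads per autosomal cytosine were 1.005 and 1.07 there against 0.650 to 0.688 in the other 4 samples, all labelled male. Day 4 against day 0 is therefore given beside each comparison with day 7. Day 7 still bears on it, through the spread estimated by the model and through the minimum of reads in each sample, which sets the cytosines and runs that enter. Mean coverage of the interval was near that of the autosomes, at 1.00 to 1.07 times the autosomal mean per cytosine in the 6 samples.

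The interval stood out for intermediate methylation. Among its 56 runs of at least 3 cytosines that had 20 reads or more in each sample, 37 had a mean level over the 6 samples between 20% and 80%, 12 lay below 20% and 7 above 80%. That is 66.1% in the intermediate range, against 15.9% of the 31512 autosomal runs outside the interval (5015 runs). The median run stood at 56.4% in the interval and at 5.6% elsewhere on the autosomes. By sample, the intermediate share was 73.2% and 71.4% on day 0, 66.1% and 66.1% on day 4, and 69.6% and 58.9% on day 7, while on the other autosomes it ranged from 14.4% to 22.4%. The difference between the 2 shares was 49.6 ± 5.63 points (SD, n = 6 samples), positive in 6 of 6, with a two-sided exact sign-flip permutation p of 0.031, the smallest that 6 samples allow. This comparison was chosen after the values were seen, and with 1 sample left out no p below 0.0625 is possible.

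The contrast was widest among the runs with the most cytosines. Of the runs with at least 10 cytosines, 10 of 14 in the interval (71.4%) were intermediate, against 318 of 9498 on the other autosomes (3.35%). Of the long runs elsewhere 89.9% lay below 20%. In the flanks, the 2 adjoining stretches of the same length on chromosome 18, all 17 such runs lay below 20% and the highest reached 5.92%. Runs of 3 to 5 cytosines differed less: 66.7% of 24 were intermediate in the interval and 28.2% of 11621 elsewhere. For runs of 6 to 9 cytosines the shares were 61.1% of 18 and 13.7% of 10393.

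**Figure D1:**
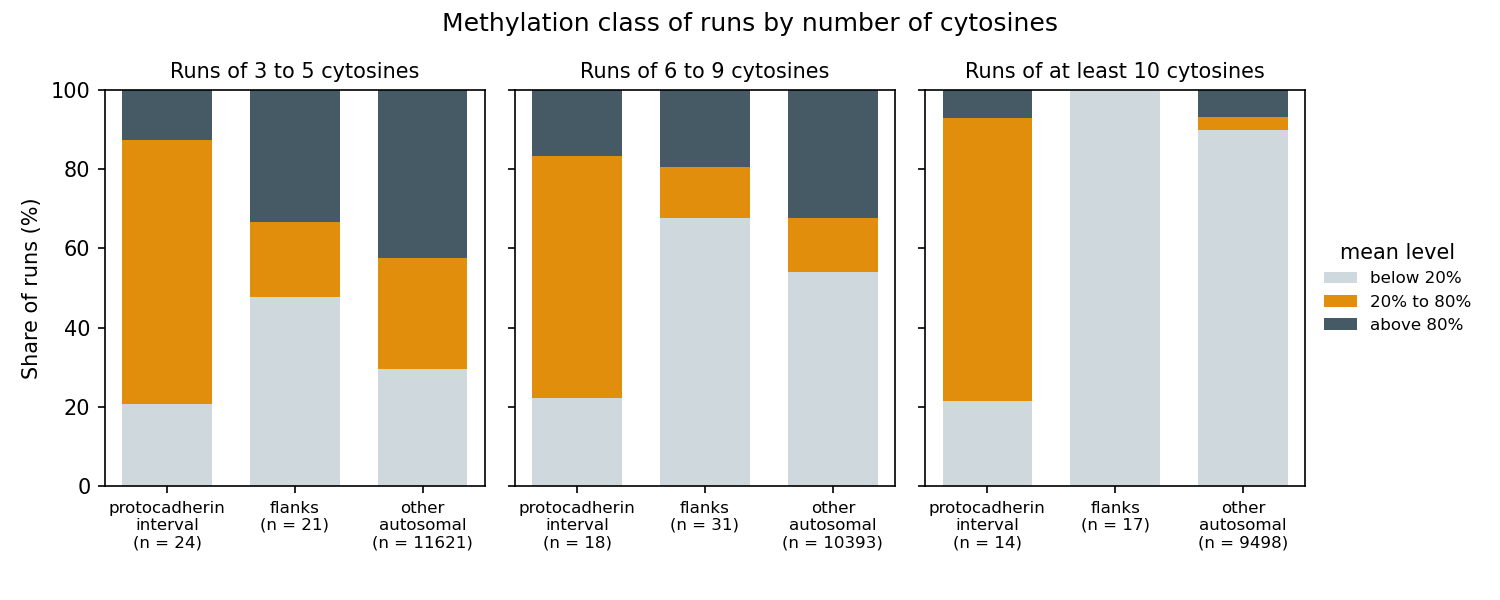
Share of runs (y axis, %) whose mean level over the 6 samples is below 20%, 20% to 80% or above 80%, for the protocadherin interval, its flanks and the other autosomal sequence, by number of cytosines in the run. The intermediate class takes 71.4% of the interval's runs of at least 10 cytosines and 3.35% of such runs elsewhere on the autosomes.

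Single cytosines inside the intermediate runs were mostly intermediate themselves. Of 277 cytosines with at least 20 reads over the 6 samples in the 37 runs, 242 (87.4%) had a pooled level between 20% and 80%, 6 were lower and 29 were higher. In intermediate runs elsewhere on the autosomes the share was 68.6% of 27482. The interval's intermediate runs more often had means near the middle of the band, and the part of this in the 2 shares was not tested. Levels still varied along a run: the median standard deviation between cytosines of a run was 13.1 points in the interval and 11.95 points elsewhere. The median range within a run was 36.8 and 29.2 points. In 28 of the 37 runs all 6 samples lay between 20% and 80%. The other 9 left that band in at least 1 sample. The range over the 6 samples had a median of 17.1 points and reached from 8.62 to 53.5 points.

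In the alpha stretch, which in gene order runs from the tandem variable exons to the C-type exons and the constant exons, 16 runs had at least 20 reads in each sample. Of these, 9 were intermediate, 4 lay above 80% and 3 below 20%. The run of 14 cytosines from 37091984 to 37092233 stood at 60.1% and 63.2% on day 0, 55.8% and 55.03% on day 4, and 65.8% and 61.9% on day 7. Its single cytosines spanned 28.6% to 84.9% with all samples pooled. The days overlapped in part, with both day 4 samples below the other 4. The run of 11 cytosines from 37120358 to 37120561 stood at 36.2% and 39.6%, 35.5% and 44.1%, and 37.2% and 43.2% on the 3 days, so the days overlapped. Its cytosines ranged from 1.18% to 72.7%.

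The alpha runs nearest to 50% were those starting at 37106125 (6 cytosines, 51.5% ± 4.63 over the 6 samples), 37157897 (9 cytosines, 54.3% ± 6.47) and 37152394 (8 cytosines, 54.7% ± 5.64; SD, n = 6 each). Highly methylated runs lie between and after them in the same part of the cluster. The highest were those starting at 37148352 (8 cytosines, 92.2% ± 4.66), 37139975 (9 cytosines, 87.9% ± 4.51) and 37205563 (8 cytosines, 85.8% ± 4.64; n = 6 each). The distance from the end of the run at 92.2% to the intermediate run at 54.7% is under 4 kb.

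The 3 alpha runs below 20% lay in the later part of the stretch, among higher ones. The longest alpha run, of 20 cytosines from 37249576 to 37249993, stood at 10.4% and 8.0% on day 0, 13.2% and 11.4% on day 4, and 9.96% and 9.52% on day 7. It follows a run at 83.5% that ends 15.8 kb upstream. Between it and the next low run lay runs at 45.4%, starting at 37251637, and at 79.1%, ending at 37276054. The run of 9 cytosines from 37303618 to 37303760 was lower still, at 5.71% and 3.47%, 5.23% and 3.47%, and 1.59% and 3.70%, and each of its 9 cytosines lay below 10% with samples pooled. The run of 3 cytosines from 37304406 to 37304418 had a mean of 8.48% ± 4.00 (SD, n = 6). In all 6 samples these 3 runs stayed at or below 15%.

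The beta stretch, home of the single-exon genes, held no run with many cytosines. Its longest run had 8 cytosines, against 20 in alpha and 25 in gamma, and 6 of its 16 runs of at least 3 cytosines had 20 reads in each sample. The table listed 3.64 cytosines per 10 kb there, against 7.15 in alpha and 20.6 in gamma. Near the start of the beta stretch levels climbed over 3 neighbouring runs within 1 kb. The first, of 8 cytosines from 37424886 to 37425003, had a mean of 17.2%, the next, starting 333 bp on, of 49.9%, and the last, starting 126 bp after that one ends, of 68.8%. The first step was upward in 6 of 6 samples. The first run was also the most uneven of these between replicates, at 25.5% and 3.95% on day 0, 25.2% and 14.8% on day 4, and 7.87% and 25.8% on day 7. These days overlap, and both replicates of a day differ by more than 10 points.

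Other beta runs were partly to mostly methylated. The run starting at 37480766 (4 cytosines) had a mean of 56.8% ± 17.4, that starting at 37665459 (3 cytosines) of 71.7% ± 10.2, that starting at 37645706 (3 cytosines) of 79.4% ± 8.33 and that starting at 37482249 (5 cytosines) of 83.9% ± 8.42 (SD, n = 6 each). The beta genes are close in sequence to each other. How the authors treated reads that fit several copies is not given in the sources used here, and its part in these levels was not tested.

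The gamma stretch was the richest, with 52 runs of at least 3 cytosines, of which 31 had 20 reads in each sample. Of the 31, 23 were intermediate, 7 lay below 20% and 1 above 80%. The run of 16 cytosines from 37903454 to 37903591 stood at 68.0% and 59.3% on day 0, 70% and 57% on day 4, and 57.8% and 57.4% on day 7. Those nearest to 50% started at 37897012 (11 cytosines, 47.2% ± 5.16), 37854548 (11 cytosines, 46.5% ± 6.58) and 37912546 (7 cytosines, 54.9% ± 5.87; SD, n = 6 each). The only one above 80% was also 1 of the 2 longest, with 25 cytosines from 37922960 to 37923236, at 79.3% and 77.0%, 84.4% and 78.0%, and 84.7% and 84.5% on the 3 days. This long run was heavily methylated at each stage, unlike the other runs of at least 10 cytosines in the interval, whose highest mean was 72.7%.

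A block of little methylated runs lay near the end of the gamma stretch. Between 37966064 and 37975071, a length of 9008 bp, 5 runs with 54 cytosines had means of 0.298% to 10.7%. The run of 25 cytosines from 37966064 to 37966612 stood at 0.733% and 1.26% on day 0, 0.725% and 1.55% on day 4, and 1.39% and 2.27% on day 7. The level on the mitochondrial sequence, over 31 cytosines, was 0.547% and 0.490%, 1.17% and 0.664%, and 2.27% and 1.76% in the same samples, so these values are near it. The run of 16 cytosines from 37966961 to 37967250 had a mean of 5.63% ± 1.46 (SD, n = 6), with single cytosines of up to 16.8% in pooled samples. The run starting at 37967571, with under 20 reads in its shallowest sample, was higher on day 7 than on day 0 by 8.85 points (adjusted p = 0.271, edgeR). Against day 4 the difference was 8.90 points (adjusted p = 0.306, edgeR). The run of 6 cytosines from 37975033 to 37975071 had 1 methylated read of 56 in day 0 replicate 2 and 0 in the others, whose 45 to 69 reads allow levels of up to 4.35% to 6.67% (3 reads of the total). Such limits cover counting error only.

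Highly methylated runs lay on both sides of this block. The last run of at least 3 cytosines before it, from 37962523 to 37962668, stood at 78.7% and ended 3.40 kb upstream. The next one after it, starting at 37981621, stood at 93.3% and began 6.55 kb downstream. Over the whole interval, 36 pairs of neighbouring runs lay at most 1 kb apart, with a median step of 11.4 points. Only 3 steps exceeded 30 points. The largest, 40.9 points over 578 bp, led from the run at 37915994 (14.5%) to that at 37916623 (55.4%) and had this direction in 6 of 6 samples.

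**Figure D2:**
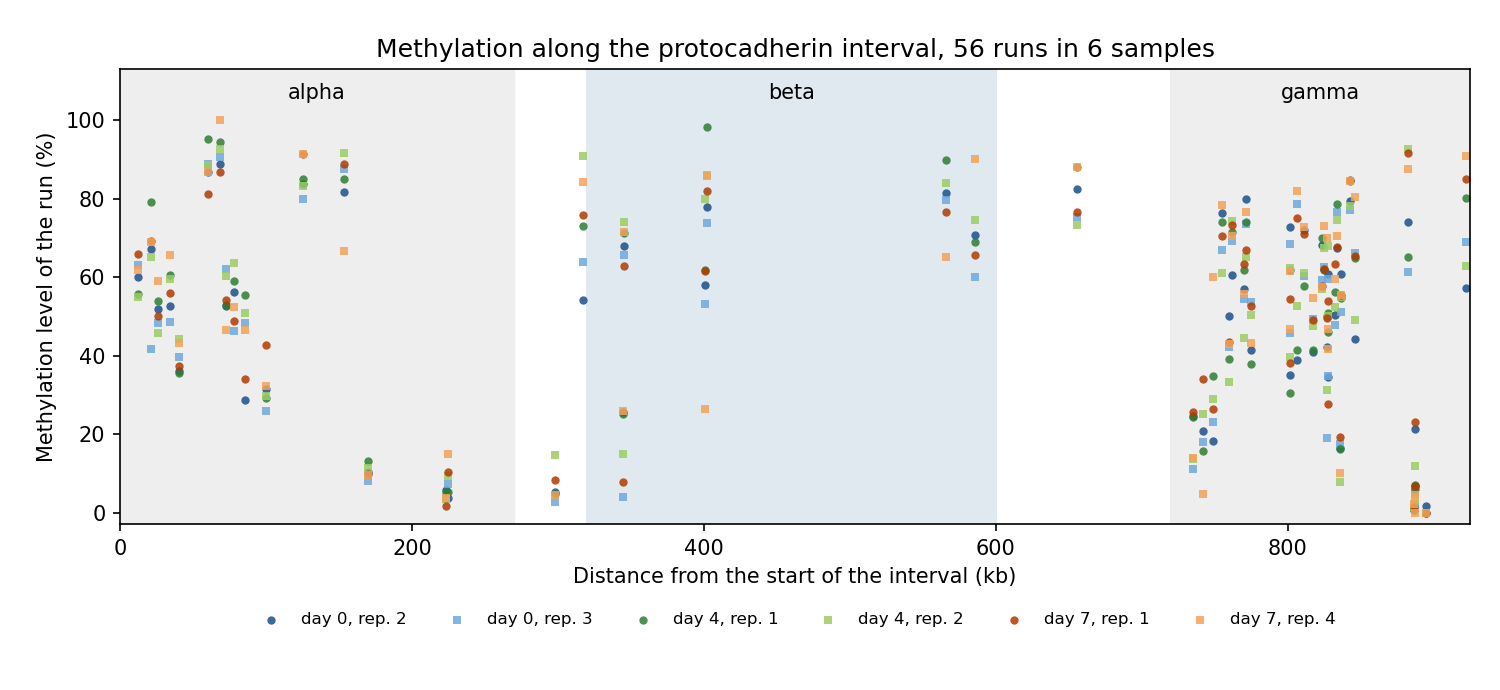
Methylation level (y axis, %) of the 56 runs of at least 3 cytosines that had 20 reads or more in each sample, by distance from the start of the interval (x axis, kb). Each point is 1 run in 1 sample, and shading marks the alpha, beta and gamma stretches. Low runs lie in the later part of alpha, near the end of gamma and at other places, and most others lie between 20% and 80%.

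**Figure D3:**
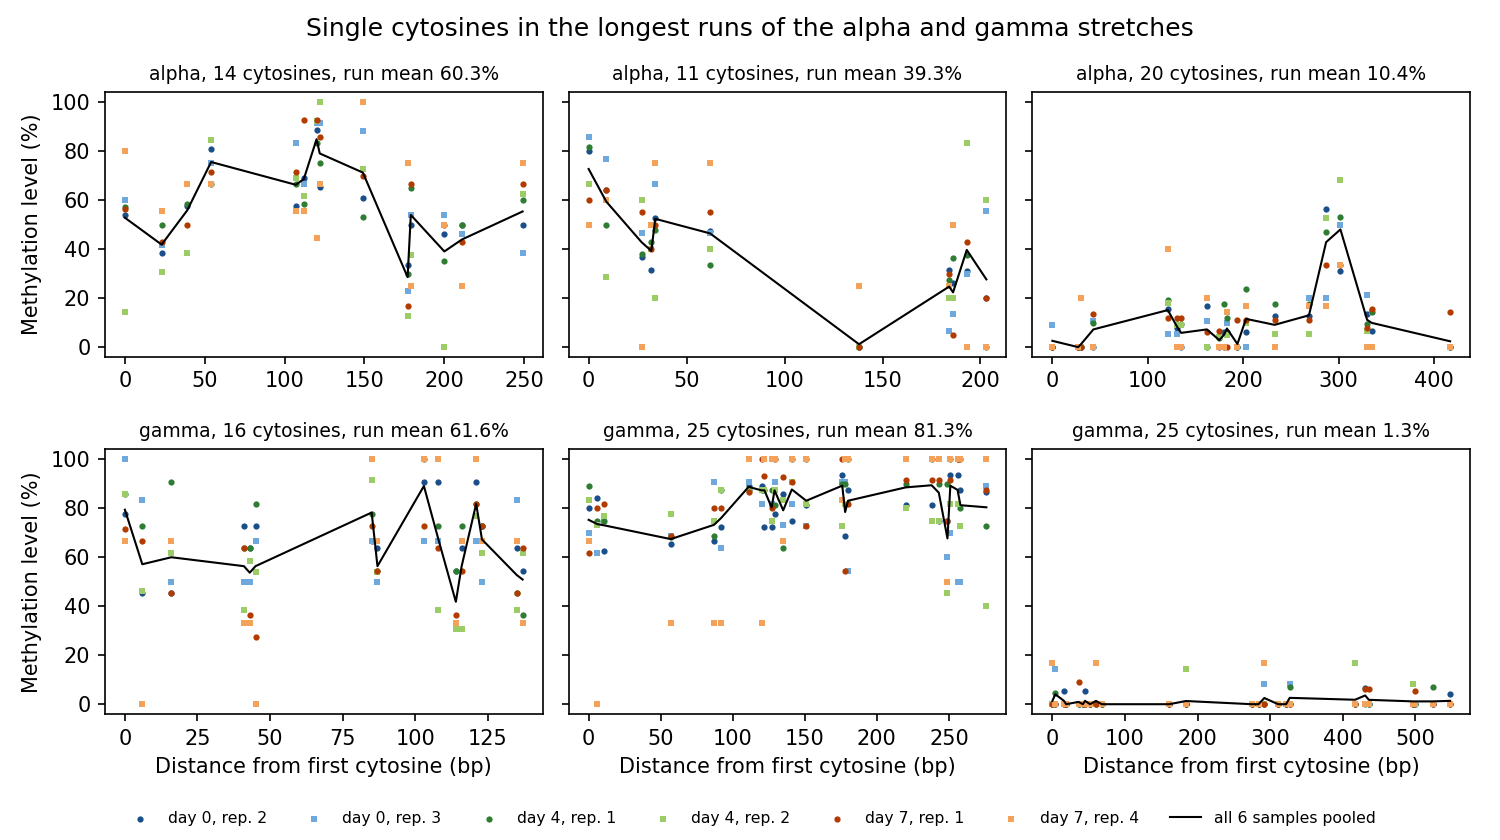
Level of single cytosines (y axis, %) by distance from the first cytosine of the run (x axis, bp) in the 3 longest runs of the alpha and of the gamma stretch, by sample, with all 6 samples pooled as a line. The 2 gamma runs of 25 cytosines have means of 81.3% and 1.32%, while cytosines of the alpha run of 11 range from 1.18% to 72.7%.

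Runs of 1 or 2 cytosines were counted apart. Their median level was 62.2% over 22 in alpha, 62.4% over 30 in beta and 71.8% over 47 in gamma. Of them, 18, 23 and 23 were intermediate. No read minimum was set for these short runs, and that at 37120156 had 1 read in day 7 replicate 4. Means of levels from so few reads are uncertain, and no share for such runs elsewhere on the autosomes is given here. Between the clusters, the run of 5 cytosines from 37377888 to 37378008 had a mean of 6.72% in the gap between alpha and beta, and the 5 runs of at least 3 cytosines in the gap between beta and gamma, where Slc25a2 and Taf7 lie in gene order, ranged from 62.9% to 93.5%.

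Averaged over cytosines read in each sample, the clusters differed in level. Alpha (193 cytosines) stood at 47.8% and 46.9% on day 0, 50.97% and 49.1% on day 4, and 49.4% and 50.3% on day 7. Beta (99 cytosines) stood at 62.7% and 56.3%, 65.01% and 65.07%, and 61.8% and 61.8%. Gamma (421 cytosines) stood at 51.6% and 50.8%, 52.9% and 50.6%, and 54.6% and 55.9%. In each sample beta was the highest and alpha the lowest. The beta minus gamma difference was 9.36 ± 3.69 points and the alpha minus beta difference -13.0 ± 2.41 points (SD, n = 6 samples; adjusted p = 0.031 for both, two-sided exact sign-flip permutation test, Benjamini-Hochberg over 5 comparisons). The alpha minus gamma difference was -3.68 ± 1.67 points (adjusted p = 0.031, exact permutation), but it turned to 7.84 points where each sample had 5 or more reads at a cytosine, so the order of alpha and gamma depends on which cytosines are counted.

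The whole interval was more methylated than its surroundings. Its mean over 760 cytosines was 54.0% ± 1.86, against 34.8% ± 1.35 over 1104 cytosines of the flanks and 46.9% ± 1.51 over 629242 other autosomal cytosines (SD, n = 6 each). The difference was 19.2 ± 1.14 points from the flanks and 7.10 ± 0.670 points from the other autosomes, with the same sign in 6 of 6 samples (adjusted p = 0.031 for both, exact permutation). Without both day 7 samples, a setting added once the data had been seen, these differences were 18.7 and 6.80 points.

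**Figure D4:**
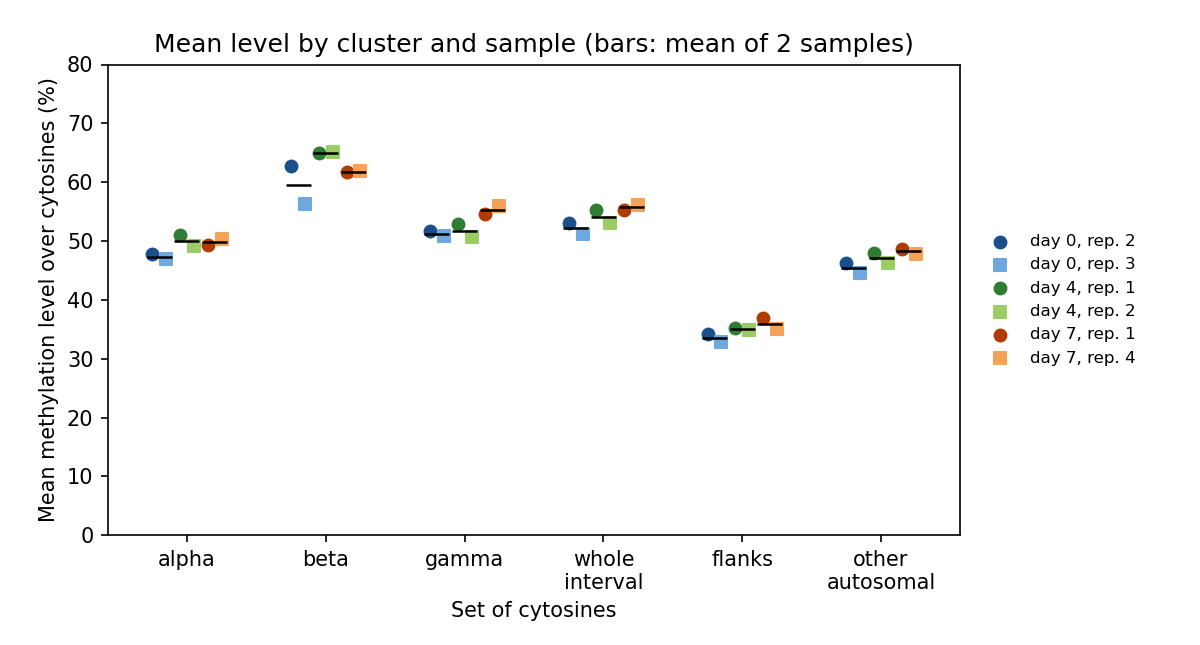
Mean methylation level over cytosines (y axis, %) in the alpha, beta and gamma stretches, the whole interval, its flanks and the other autosomal sequence (x axis), 1 point per sample, with bars at the mean of the 2 samples of a day. Beta lies highest in each sample, from 56.3% to 65.1%, and the flanks lowest.

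The interval averaged 52.1% ± 1.30 on day 0, 54.2% ± 1.48 on day 4 and 55.7% ± 0.589 on day 7 (SD, n = 2 each), beside 45.4% ± 1.23, 47.1% ± 1.11 and 48.2% ± 0.639 over the other autosomal cytosines. Day 4 against day 0 came to 2.03 points, day 7 against day 0 to 3.61 and day 7 against day 4 to 1.58, each with an exact permutation p of 0.33 (adjusted p = 0.444 over 12), the smallest that 2 samples against 2 allow. Single samples weigh on these values: the first was 0.981 points without day 4 replicate 1, 1.11 without day 0 replicate 3 and 3.08 without day 4 replicate 2, and the last was 2.63 without day 4 replicate 1 and 0.534 without day 4 replicate 2. In gamma the day 7 minus day 0 difference was 4.01 points and the samples did not overlap. In alpha it was 2.52 points, also without overlap, and in beta 2.31 points with overlapping samples. Such a lack of overlap was not particular to the clusters. The other autosomal cytosines stood at 46.26% and 44.52% on day 0 and at 48.69% and 47.79% on day 7. The flanks stood at 34.15% and 32.77% on day 0 and at 36.89% and 35.02% on day 7. On day 4 both parts also lay above day 0 without overlap, at 47.92% and 46.34% and at 35.19% and 34.81%. The largest cluster difference was that of beta between day 4 and day 0, at 5.55 points without overlap. Between day 7 and day 4 beta differed by -3.24 points, also without overlap. Over the 31 beta cytosines with 5 or more reads in each sample these were 11.7 and -7.40 points. None of these can pass the test with 2 samples a day, and that of beta between day 4 and day 0 was 2.35 to 8.76 points with each sample left out.

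No run of the interval passed the test between any 2 days. Of its runs, 84 had at least 10 reads in each sample and entered a genome-wide edgeR model, where a call needs an adjusted p below 0.05 and a difference of at least 20 points. For day 4 against day 0, 0 of 84 were called, where 0.00178% of all 56105 runs were, and 4 had an unadjusted p below 0.05 (4.76%, against 6.6% of all runs). All 4 were higher on day 4, as were 2707 of the 3702 over all runs. For day 7 against day 0, 0 were called, where 0.497% of all runs were, and 5 had an unadjusted p below 0.05 (5.95%, against 12.9%). All 5 were higher on day 7, as were 6535 of the 7219 over all runs. For day 7 against day 4, 0 were called, where 0.451% of all runs were, and 4 had an unadjusted p below 0.05 (4.76%, against 11.4%). All 4 were higher on day 7, as were 5073 of the 6397 over all runs. With autosomes fitted alone, which leaves out the X chromosome on which the day 7 libraries differ, 0.00181%, 0.0417% and 0.0181% of 55146 runs were called, and 6.66%, 12.3% and 10.9% had an unadjusted p below 0.05. The edgeR quasi-likelihood test and limma also called 0 in each comparison, with 2, 3 and 2 and with 1, 2 and 2 runs at an unadjusted p below 0.05. Fisher's exact test on reads pooled within days, which ignores the spread between replicates, called 1, 2 and 1, with 12, 17 and 19 at an unadjusted p below 0.05. Over all 56105 runs Fisher's exact test called 358, 788 and 583, with 6698, 9849 and 8297 at an unadjusted p below 0.05. The quasi-likelihood test called 0, 198 and 187 of them, with 2271, 5006 and 4322 below 0.05. For limma these were 0, 47 and 63 called, with 2425, 7190 and 6231 below 0.05.

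Over the 84 runs the median difference was 1.60 points between day 4 and day 0, 2.60 between day 7 and day 0 and 0.68 between day 7 and day 4, beside 0.44, 1.53 and 0.96 over all runs tested. Higher levels were found in 51, 58 and 46 of the 84 and lower levels in 33, 26 and 37, and such counts over all runs are not given here. Among the 56 runs with at least 20 reads in each sample, day 4 lay above day 0 in both samples of each in 14, or 25.0%, against 19.5% of autosomal runs, and below in 4, against 10.8%. For day 7 over day 0 the same held in 15, or 26.8%, against 32.2%, and below in 4, against 5.98%. Against day 4 the day 7 samples lay above in 13, or 23.2%, against 27.9%, and below in 10, or 17.9%, against 8.86%. These shares are mostly near those of all autosomal runs, which include the 56. The widest gap was that for day 7 below day 4, at 17.9% against 8.86%.

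The largest differences between days are given as a description, since none was called. They are drawn from the 56 runs with 20 or more reads in each sample whose days did not overlap. Among runs with 10 to 19 reads in the shallowest sample, named after their values were seen, 2 beta runs were higher by more on day 4 than on day 0, also without overlap. These start at 37425336 (27.4 points, adjusted p = 0.729, edgeR) and 37657777 (23.9 points, adjusted p = 0.725, edgeR). Other runs of this depth exceed some listed below, whether or not the days overlapped. For day 4 against day 0 that starting at 37885599 differed by -20.1 points. Day 7 minus day 0 was 24.4 at 37657777, 23.9 at 37425336 and -16.2 at 37845122. Day 7 minus day 4 was 25.3 at 37885599, 24.2 at 37724966, 23.6 at 37892361 and -19.6 at 37834376. For day 4 against day 0 the run of 6 cytosines between alpha and beta, from 37397425 to 37397542, stood at 54.3% and 63.8% on day 0, 73.0% and 90.8% on day 4, and 75.8% and 84.3% on day 7. Both cultures thus lay above both marrow samples, by 22.9 points on day 4 (adjusted p = 0.664, edgeR), on 35 to 100 reads. Without day 4 replicate 2 the difference was 13.96 points. Next came the beta runs starting at 37482249 (16.3 points, adjusted p = 0.638, edgeR) and 37480766 (15.5 points). Leaving out day 4 replicate 1 gave 10.3 points for the former and 24.5 for the latter, and leaving out day 4 replicate 2 gave 6.43 for the latter. The 3 largest falls without overlap, at 37840082, 37881767 and 37091984, were of -9.90, -8.52 and -6.21 points, the first being -5.99 without day 0 replicate 2.

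For day 7 against day 0 the run of 6 cytosines from 38002228 to 38002400, at the end of the gamma stretch, stood at 57.3% and 68.9% on day 0, 80.2% and 62.8% on day 4, and 85.1% and 90.9% on day 7, a difference of 24.9 points (adjusted p = 0.189, edgeR). Larger but less even was the run of 5 cytosines from 37907109 to 37907144, with 42.2% and 18.9% on day 0 and 49.5% and 70% on day 7 (29.2 points, adjusted p = 0.338, edgeR), which was 17.5 points without day 0 replicate 3 and 18.9 without day 7 replicate 4. Next came that starting at 37828809 (22.6 points), where day 7 replicate 4 alone stood at 60% on 20 reads and the other 5 samples at 18.2% to 34.9%, and which was 5.84 points without it and 39.4 without day 7 replicate 1. The largest falls were of -12.6 points at 37881767, -9.70 at 37907577 and -9.66 at 37645706. Without day 7 replicate 4 the last 2 were -6.19 and -3.83 points, and without day 7 replicate 1 the last was -15.5.

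For day 7 against day 4 the run of 3 cytosines from 37886390 to 37886439 stood at 41.3% and 52.6% on day 4 and at 75.0% and 81.8% on day 7 (31.4 points, adjusted p = 0.210, edgeR). Its day 0 samples, at 39.0% and 78.6%, spanned most of that range. The gamma runs starting at 38002228 and 37926434 were higher by 16.5 and 15.97 points. Without day 4 replicate 2 these were 7.79 and 7.99 points, the first was 25.2 without day 4 replicate 1, and the second was 8.38 without day 7 replicate 4. The latter, of 14 cytosines, stood at 44.2% and 66.2%, 64.9% and 49.0%, and 65.3% and 80.5% on the 3 days. Falls were of -26.9 points at 37480766, -16 at 37645706 and -13.2 at 37907410. In the first, day 7 replicate 4 stood at 26.5%, and the fall was -9.41 points without it, -44.5 without day 7 replicate 1 and -17.9 without day 4 replicate 2. The second was -10.2 without day 7 replicate 4. The last was -6.28 without day 7 replicate 1 and -20.2 without day 7 replicate 4.

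A single short run gave a large difference on few reads. The beta run of 3 cytosines from 37503089 to 37503103 was left out of the main test because day 0 replicate 3 had 9 reads over the run, below the minimum of 10. Its levels were 100% and 100% on day 0, 8.33% and 33.3% on day 4, and 83.3% and 50% on day 7. With no read minimum it was called for day 4 against day 0, at -79.2 points (adjusted p = 0.00016, edgeR), and so it was without day 0 replicate 3 (adjusted p = 0.0126). It was named after its values were seen. Each of its 3 cytosines had the same number of reads in a sample, 7 and 3 on day 0, 4 and 8 on day 4, and 8 and 4 on day 7. Its first cytosine stood at 25.0% and 75.0% on day 4, and the other 2 at 0% and 12.5%. All cytosines had the same read number in 109 of 576 pairs of a run and a sample. Where neighbouring cytosines lie on the same reads, a sum over a run counts those reads more than once, so such p-values can be too small.

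Replicates of a day also differed from each other. Over the 37 intermediate runs the median difference between the 2 samples of a day was 8.65 points on day 0, 6.09 on day 4 and 7.61 on day 7. In the 5015 intermediate autosomal runs outside the interval it was 7.52, 7.37 and 9.56 points. Depth was not equal: median reads of a run in its shallower sample were 83, 69 and 34 in the interval. Outside it they were 57, 50 and 27.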

How the data were processed

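Reduced representation bisulfite libraries of 6 samples, cut with MspI and TaqI per the labels' protocols, were handled by the authors with Bismark and Bowtie2 on mm9, per the submitters' processing notes. The sources used here give no versions and nothing on trimming, duplicate reads or multiply mapping reads. The deposited table gives, per the file headers, counts of methylated and unmethylated reads and the methylated fraction for each cytosine, which equals methylated over all reads. Levels here are percent values recomputed from the deposited counts.

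The members, the named lists and the test model were chosen with earlier results of these data known. Runs of at least 3 cytosines (gap at most 100 bp) with at least 10 reads in each sample were tested genome-wide with edgeR 4.0.16 (R 4.3.3), by a likelihood ratio test on methylated and unmethylated counts with all 6 samples in 1 model and Benjamini-Hochberg adjustment. The script was tested on simulated data. Means of clusters were compared by exact permutation tests over samples. Named runs were, per cluster, the 3 with the most cytosines, the lowest, the highest and the level nearest 50%, and per comparison the 3 largest rises and falls without overlap, among runs with at least 20 reads in each sample. Neighbours of these at steps in level were chosen after their values were seen. Alternatives were limma 3.58.1 with a pseudocount of 0.5, a quasi-likelihood test, Fisher's exact test, other read minimums, gaps of 50 and 200 bp, minimum differences of 10 points and none, autosomes alone and each sample left out. RefSeq gene names and order were taken from GRCm38. No sequence is printed.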

Additional observations from a re-analysis of the deposited data

How the results depend on the processing

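Calls between days depended on the test and the read minimum. The count of runs called for day 4 against day 0 was 0 in the main fit and 1 with Fisher's exact test, 1 with no read minimum and 0 to 1 with each sample left out. The single call without day 0 replicate 3 is the run starting at 37503089, which then passes the read minimum. For day 7 against day 0 and day 7 against day 4, Fisher's exact test called 2 and 1, and leaving out each sample gave 0 to 0 in both. The other alternatives called 0. Over all runs tested, Fisher's exact test called 358, 788 and 583 of 56105 in the 3 comparisons. With no read minimum 3 of 67663 runs were called for day 4 against day 0. With at least 10 reads per run, 58 runs lay between 20% and 80%, against 37 with at least 20, since 84 instead of 56 runs enter.

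The difference alpha minus gamma was -2.71 points from total reads (exact permutation p = 0.0938), -0.629 as a mean over runs (p = 0.531), 7.84 with at least 5 reads per cytosine and 5.86 with at least 10, the cause of which was not tested. With each sample left out, where no p below 0.0625 is possible, it ranged from -4.11 to -3.37, alpha minus beta from -13.8 to -12.5, beta minus gamma from 8.34 to 10.2, the interval minus its flanks from 18.6 to 19.4, the interval minus other autosomes from 6.75 to 7.19 and the difference in intermediate share from 45.7 to 50.4. Without both day 7 samples the first 5 were -2.92, -13.8, 10.8, 18.7 and 6.80, with the smallest possible exact permutation p of 0.125. The intermediate share difference was 44.1 to 53.5 points with other read minimums and gaps, and 70.2 points for runs of at least 10 cytosines.

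Mean levels moved with the cytosines counted. As a mean over runs alpha stood at 50.7% and beta at 65.5%. With at least 5 reads per cytosine the interval, alpha, beta and gamma stood at 50.8%, 53.2%, 68.3% and 45.3%, over 325, 94, 31 and 187 cytosines. With at least 10, the interval, alpha and gamma stood at 62.8%, 62.7% and 56.8%, over 9, 3 and 4 cytosines, and beta had none. On those 4, the gamma differences were -2.60 points between day 4 and day 0, -4.41 between day 7 and day 0 and -1.82 between day 7 and day 4. Alpha, on its 3, came to 20.9, 19.9 and -1.06 in the same order, and the interval to 6.60, 7.31 and 0.704. The alpha difference for day 7 against day 4 was 3.05 points from total reads and -1.13 to 0.72 with each sample left out. With each sample left out, the interval's differences were 0.981 to 3.08 for day 4 minus day 0, 2.69 to 4.53 for day 7 minus day 0 and 0.534 to 2.63 for day 7 minus day 4, the beta difference for day 7 against day 0 was -0.897 to 5.52 and the gamma difference for day 4 against day 0 was -0.618 to 1.69. No paired analysis was possible because no 2 groups share 2 replicate numbers. Depth is a limit: 9 of 765 cytosines had at least 10 reads in each sample, and day 7 replicate 4 had a median of 4.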
